A study of Mus musculus with 12 samples.

Results

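The TAM family consists of the receptor tyrosine kinases Tyro3, Axl and Mertk, whose initials give it its name, and its ligands are Gas6 and Pros1 (protein S). Each of these 5 genes was found by its symbol in exactly 1 row of the deposited table of 19547 genes, and all 5 passed the filter on low counts that left 18551 genes to test. The set was chosen by results of these data: Axl had the sixth smallest p of all tested genes in CAL against control (rank 6) and the fifth in CAL_Dll4i against CAL (rank 5). The other 4 genes were added as family members. The values of all 5 in these comparisons are therefore given as a description. No p-value is printed for any of them. Ranks by p and calls at a threshold are given, as a description too.

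RNA was measured in fat grafts from 12 samples of wild-type C57BL/6 mice, labelled as 16 weeks of age and adipose tissue, with grafts taken at 8 weeks. Control grafts (control, n = 4) were fat grafts without added cells. CAL grafts (cell-assisted lipotransfer, n = 4) had ASC added, which commonly stands for stem or stromal cells taken from adipose tissue. CAL_Dll4i grafts (n = 4) had ASC added together with inhibition of Dll4, a Notch ligand of endothelial cells. The labels name neither the inhibitor nor its dose, do not say whether each sample came from its own animal, and do not give the source of the ASC, so spread between samples may be technical in part.

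TAM receptors recognise dying cells indirectly. Gas6 and protein S carry a Gla domain, modified by a vitamin K-dependent carboxylase, that binds phosphatidylserine exposed on the surface of apoptotic cells, while their other end binds the receptor. Gas6 binds all 3 receptors, whereas protein S binds Tyro3 and Mertk and is also a plasma anticoagulant. Receptor activation drives the engulfment of apoptotic cells by macrophages and dampens innate immune signalling. In tissues, Mertk is best known from resident and tolerogenic macrophages, Axl from inflamed or interferon-exposed phagocytes, dendritic cells and mesenchymal cells, and Tyro3 from neurons and other non-immune cells. Gas6 is made by fibroblasts, endothelial cells, smooth muscle cells and macrophages.

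On GRCm38, the assembly of mm10, Axl lies on chromosome 7 at 25756500 to 25788924, Mertk on chromosome 2 at 128698915 to 128803162 and Tyro3 on the same chromosome at 119797740 to 119818104. Gas6 lies on chromosome 8 at 13465374 to 13494535 and Pros1 on chromosome 16 at 62854307 to 62929346. Annotated exons of Axl, Mertk, Tyro3 and Pros1 overlap no exon of another gene in GENCODE, while 34 bases of Gas6 exon (1.33% of its exonic length) overlap Tmem255b on the opposite strand. No source used here states whether reads were counted by strand. The 250 bases before the annotated start are shown for the ligands, Gas6, whose CAL and control libraries did not overlap in normalised counts, and Pros1, whose libraries did. Both windows lie wholly outside the annotated genes. Capitals mark the GC box letters GGGCGG on either strand (from RefSeq, GRCm38.p6, minus strand of chr8:13494536-13494785 for Gas6 and plus strand of chr16:62854057-62854306 for Pros1, written 5′ to 3′ in the direction of transcription):
Gas6: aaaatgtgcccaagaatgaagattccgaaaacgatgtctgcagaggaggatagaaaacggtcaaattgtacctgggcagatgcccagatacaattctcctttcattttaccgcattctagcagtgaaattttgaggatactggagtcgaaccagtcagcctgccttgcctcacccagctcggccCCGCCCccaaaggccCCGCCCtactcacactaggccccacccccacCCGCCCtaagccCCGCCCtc
Pros1: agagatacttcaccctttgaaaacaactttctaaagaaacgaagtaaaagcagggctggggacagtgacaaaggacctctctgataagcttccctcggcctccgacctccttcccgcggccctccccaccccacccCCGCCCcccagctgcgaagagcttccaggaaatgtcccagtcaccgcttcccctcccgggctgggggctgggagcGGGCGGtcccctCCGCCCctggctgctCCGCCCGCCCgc

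The Gas6 window holds 4 GC boxes, at 66, 51, 20 and 8 bases before the start, and the Pros1 window holds 5, at 114, 39, 27, 12 and 8 bases before it, the last pair overlapping. The same window has 1 GC box in Axl, 3 in Mertk and 3 in Tyro3, and 32.7% of all 32851 windows of this length hold at least 1. All 3 other motifs searched on both strands, TGGGAA (the core bound by the Notch effector RBPJ, in 21.6% of windows), TGANTCA (an AP-1 site, in 6.75%) and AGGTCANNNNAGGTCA (the repeat bound by liver X receptors, in 0.0152%), had no match in any of the 5 windows. The starts used for Axl and Tyro3 lie inside the annotated spans of these genes, so that 191 of the 250 bases of the Axl window and all 250 of the Tyro3 window fall within the gene. These matches describe letters and show no binding.

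Total counts ran from 55883051 to 70804141 per library, and library pairs correlated across genes at 0.984 to 0.993 within groups and 0.979 to 0.994 between groups. Dll4, the targeted gene, had a mean CPM (counts relative to the TMM-scaled library size) of 5.78 ± 0.836 in control grafts, 3.72 ± 0.536 with ASC and 4.42 ± 0.399 with ASC and Dll4 inhibition (SD, n = 4 each; edgeR adjusted p = 0.132 and DESeq2 adjusted p = 0.00285 for CAL against control). Every CAL and every CAL_Dll4i library lay below every control for Dll4, and its mRNA does not test an inhibitor of unknown kind. Acta1, skeletal muscle actin, was at 28.1 CPM in CAL replicate 1, 74.5 in CAL replicate 2 and 127 in CAL_Dll4i replicate 3, and at 2.91 or less in the other 9 libraries. Fold changes of Axl, Tyro3 and Gas6 and the number of genes called in CAL against control are also given without these 3. List counts, marker sums, ratios and correlations are not given without all 3. Adipocyte markers (16 genes, summed at 923 to 3149 CPM) and macrophage markers (13 genes, 2472 to 2836 CPM) were present in every library. No gene in the table has a count of 0 in any library. In RNA from whole grafts, fewer cells of a type and less RNA per cell cannot be told apart.

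Per unit of transcript length, Mertk, Gas6, Axl and Pros1 were abundant and Tyro3 was scarce. The libraries were enriched for exons by capture. Levels compared between genes may therefore also depend on how well each gene was captured, which was not measured. Mertk ranged over the 12 libraries from 118 to 180 TPM (the length-normalised abundance deposited by the authors) with a median of 151, Gas6 from 113 to 214 with a median of 147, and Axl from 104 to 177 with a median of 131. Pros1 ranged from 104 to 128 TPM (median 111) and Tyro3 from 1.15 to 3.01 (median 1.84). Over the 12 libraries pooled, the ranges of the first 4 overlapped, so that order does not hold in every library. Within control, Gas6 (162 to 214 TPM) lay above the ranges of Mertk (118 to 156) and Axl (104 to 134). Tyro3 lay below every other member in every library. Among 49 receptor tyrosine kinases in the table, Mertk ranked 2 and Axl 3 by mean TPM, after Csf1r, the macrophage growth factor receptor (279 TPM).

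The order of the members differed between groups. Gas6 was the most abundant of the 5 in all 4 control libraries, where it exceeded Axl in 4 of 4 and Mertk in 4 of 4. In CAL, Gas6 exceeded Axl in 1 library (replicate 2) and Mertk in 0. In CAL_Dll4i, it exceeded Axl in 3 libraries and Mertk in 2. Axl exceeded Mertk in 2 libraries, CAL replicates 1 and 4, and in 0 control and 0 CAL_Dll4i libraries.

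**Figure D1:**
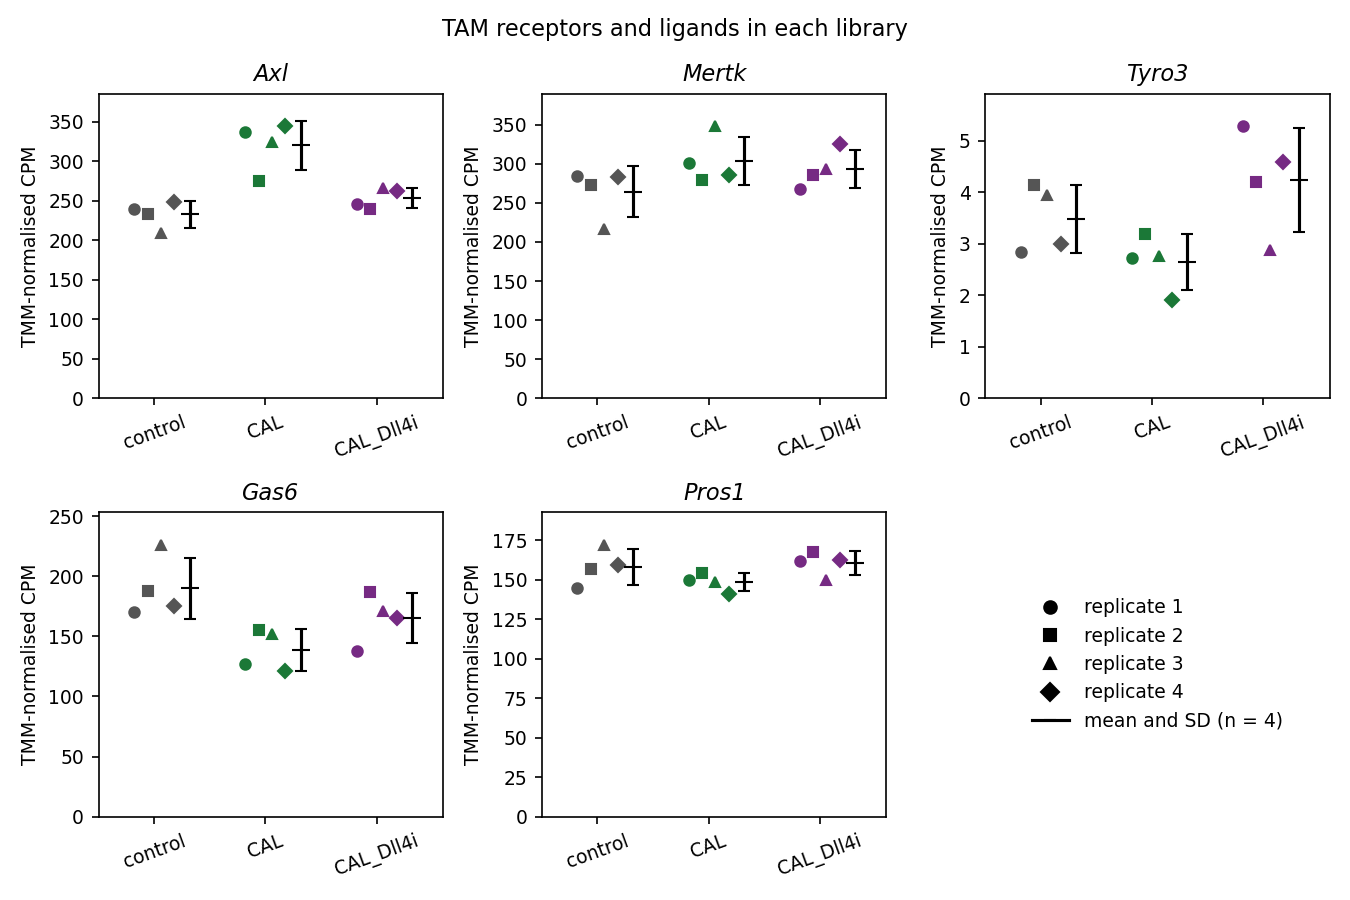
TMM-normalised counts in CPM (vertical axes, from 0) of the 5 genes in each of 12 libraries by group, with the mean and SD of 4 libraries beside the points. The 4 CAL libraries lie at 275 to 344 for Axl, above all others, and at 121 to 155 for Gas6, below all controls.

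Axl, the receptor with the highest affinity for Gas6, was at its highest in grafts with ASC alone. Control replicates 1 to 4 stood at 240, 233, 210 and 249 CPM, CAL replicates at 337, 275, 324 and 344, and CAL_Dll4i replicates at 246, 239, 266 and 263. All 4 CAL libraries lay above all 8 others, with CAL replicate 2 the lowest of them, while control and CAL_Dll4i overlapped. The log2 fold change (± SE from edgeR's quasi-likelihood fit) was 0.46 ± 0.07 for CAL against control, or 1.38-fold, -0.34 ± 0.07 for CAL_Dll4i against CAL and 0.12 ± 0.07 for CAL_Dll4i against control. In TPM, the gap closed: the lowest CAL library (131, replicate 2) lay just under the highest control (134) and the highest CAL_Dll4i library (133), with group means of 122, 160 and 125. Without the 3 libraries with Acta1 above 10 CPM the first 2 values were 0.52 and -0.42.

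Mertk, the receptor most closely tied to engulfment by macrophages, differed less. It stood at 285, 273, 216 and 283 CPM in control, at 301, 280, 348 and 286 in CAL and at 267, 286, 293 and 326 in CAL_Dll4i (replicates 1 to 4). The groups overlapped, control replicate 3 was the lowest library and CAL replicate 3 the highest. The log2 fold changes were 0.20 ± 0.10 for CAL against control, -0.05 ± 0.10 for CAL_Dll4i against CAL and 0.15 ± 0.10 for CAL_Dll4i against control. Without CAL replicate 3 the second was 0.0198, so its direction rests on that library.

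Tyro3 was measured from few reads, 125 to 350 counts per library, against 13970 to 22653 for Axl. It stood at 2.84, 4.14, 3.95 and 3.00 CPM in control, at 2.72, 3.20, 2.76 and 1.90 in CAL and at 5.28, 4.19, 2.88 and 4.59 in CAL_Dll4i (replicates 1 to 4). Groups overlapped in each comparison. CAL_Dll4i replicate 3, a library with muscle RNA, lay below the highest CAL library, and the other 3 CAL_Dll4i libraries lay above every control and CAL library. The log2 fold changes were -0.40 ± 0.21 for CAL against control, 0.68 ± 0.21 for CAL_Dll4i against CAL and 0.28 ± 0.21 for CAL_Dll4i against control. Without the 3 libraries with muscle RNA they were -0.58, 1.01 and 0.43.

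Gas6, the ligand shared by the receptors, had the reverse pattern to Axl in grafts with ASC alone. Control replicates 1 to 4 stood at 170, 188, 226 and 175 CPM, CAL replicates at 127, 155, 152 and 121, and CAL_Dll4i replicates at 137, 187, 171 and 166. All 4 CAL libraries lay below all 4 controls, in CPM and in TPM, and CAL_Dll4i overlapped with both. The log2 fold change was -0.45 ± 0.12 for CAL against control, or 0.731-fold. It was 0.25 ± 0.12 for CAL_Dll4i against CAL and -0.20 ± 0.12 for CAL_Dll4i against control. Without the 3 libraries with muscle RNA these were -0.48, 0.26 and -0.22.

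Pros1, which encodes protein S, varied least of the 5, with its highest library 1.22-fold above its lowest. Its libraries stood at 145, 157, 172 and 159 CPM in control, at 150, 155, 149 and 141 in CAL and at 162, 168, 150 and 162 in CAL_Dll4i (replicates 1 to 4). The groups overlapped throughout. The log2 fold changes were -0.09 ± 0.06, 0.11 ± 0.06 and 0.02 ± 0.06 in the order used above.

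**Figure D2:**
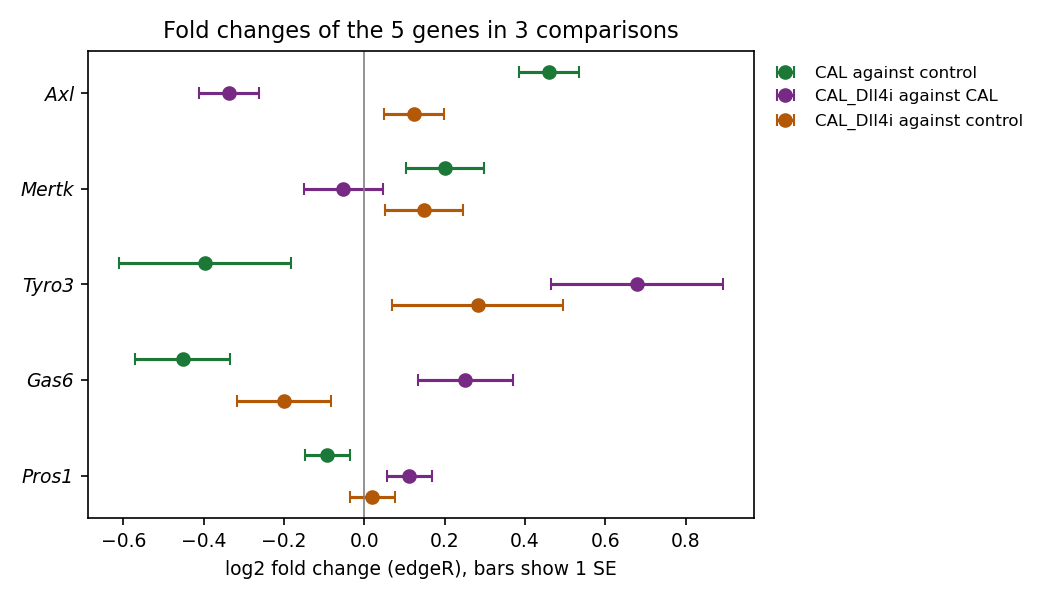
Log2 fold change of each gene (horizontal axis, edgeR, bars of 1 SE) in the 3 comparisons, which share libraries. Axl lies at 0.46 and Gas6 at -0.45 in CAL against control, and Tyro3 has the widest bars (SE 0.21).

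Adding ASC is addressed by CAL against control. By edgeR at a Benjamini-Hochberg adjusted p under 0.05, 0 of the 5 genes were called, where 0.00539% of the 18551 tested genes were. At an unadjusted p under 0.05, 2 of 5 passed (Axl and Gas6), where 14.6% of all genes did (7.01% higher and 7.57% lower). The CAL and control libraries did not overlap for 1 gene in the upward direction (Axl, against 3.61% of all genes) and 1 in the downward direction (Gas6, against 3.75%). DESeq2 called the same pair, 2 of 5 against 3.59% of genes, and limma's voom with sample weights called 1, Axl, against 0.388%. Axl helped to choose the set from this contrast, so nothing is read from these counts.

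What Dll4 inhibition adds to ASC grafts is addressed by CAL_Dll4i against CAL, which uses the same CAL libraries as the comparison above. By edgeR, 0 of 5 genes were called (0% of all genes), and at an unadjusted p under 0.05 there were 2 of 5, Axl and Tyro3, against 7.42% of all genes (4.47% higher and 2.95% lower). DESeq2 called 0 of 5 (0.00580% of genes) and voom with sample weights 0 of 5 (0%). Only Axl had groups that did not overlap, in the downward direction, as did 1.76% of genes, and 0 of 5 were apart in the upward direction (1.58% of genes). Axl helped to choose the set from this contrast too, so nothing is read from these counts either. In CAL_Dll4i against control, which again shares libraries, edgeR, voom (0% of genes each) and DESeq2 (0.332%) called 0 of 5. None passed an unadjusted p under 0.05 in edgeR (6.92% of genes, 3.86% higher and 3.06% lower), and no member had groups that did not overlap (4.77%).

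Summed over the 3 receptors, TPM was 267 ± 29.8 in control, 323 ± 29.8 in CAL and 277 ± 12.8 in CAL_Dll4i grafts (SD over 4 libraries). Summed over the ligands, it was 296 ± 31.8, 236 ± 13.9 and 259 ± 27.1. CAL grafts thus had the highest mean receptor sum and the lowest mean ligand sum of the 3 groups. The receptor sum of CAL replicate 2 (279) lay within the ranges of both other groups. Ligand sums in CAL (217 to 250) lay below every control (270 to 341) and overlapped with CAL_Dll4i (232 to 297). The ratio of ligand to receptor TPM was 0.936, 1.085, 1.52 and 0.974 in control replicates 1 to 4, 0.698, 0.894, 0.701 and 0.653 in CAL and 0.875, 1.082, 0.931 and 0.858 in CAL_Dll4i. All 4 CAL ratios lay below all 4 control ratios, and CAL replicate 2, with the most Acta1 in its group, was the only one inside the CAL_Dll4i range. These sums rest on the same Axl and Gas6 values as above and add no evidence to them. Capture may differ between genes, so a ratio of 1 need not mark equal levels, and the shares below have the same limit.

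**Figure D3:**
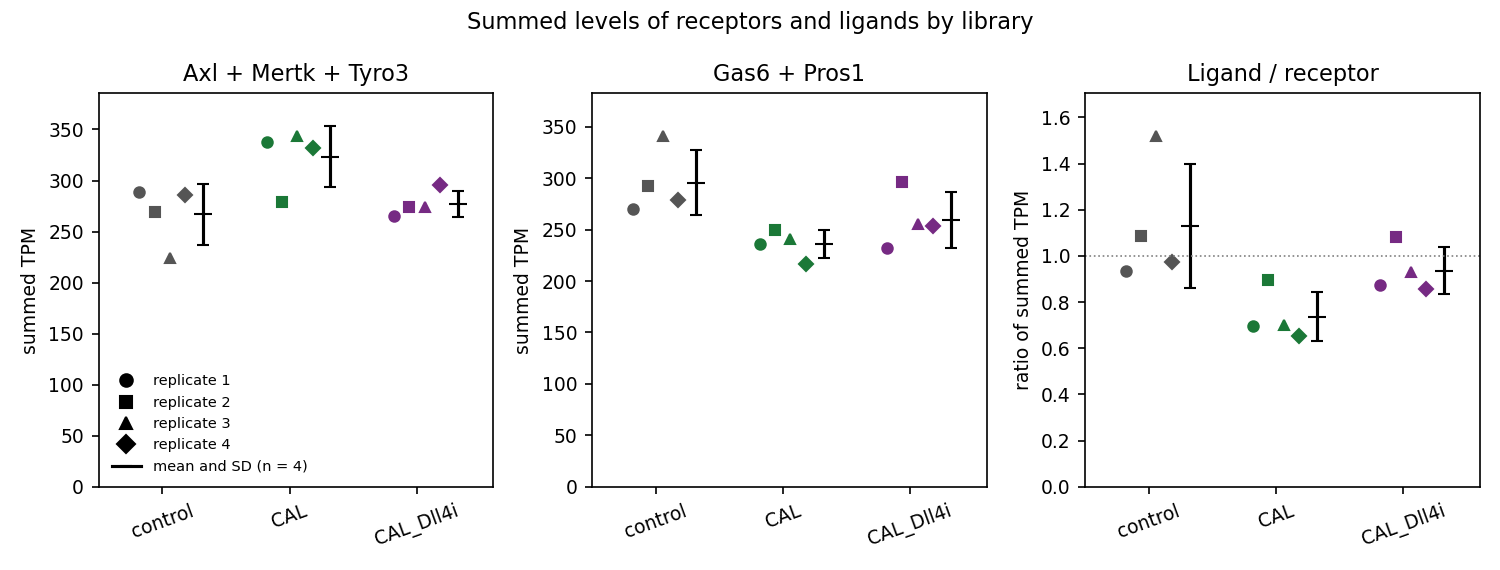
Summed TPM of the receptors (left) and ligands (middle) and their ratio (right) in each library, with the mean and SD of 4 libraries per group and a dotted line at a ratio of 1. Control replicate 3 has the highest ratio at 1.52, and the 4 CAL libraries lie at 0.653 to 0.894.

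Axl made up 44.4% to 46.9% of receptor TPM in control, 47.1% to 53.5% in CAL and 43.6% to 48.0% in CAL_Dll4i. Mertk took nearly all of the rest, and Tyro3 0.348% to 1.13% in any library. The Axl share was above every control in each CAL library, and CAL overlapped with CAL_Dll4i. Of ligand TPM, Gas6 was 58.3% to 62.6% in control, 51.9% to 56.5% in CAL and 51.9% to 59.2% in CAL_Dll4i.

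Across the 12 libraries, log2 CPM of Axl and Gas6 had a Pearson correlation of -0.853 (Spearman -0.846), and -0.644 after centring each group on its mean. Axl and Mertk stood at 0.648 and 0.603 in the same order, Axl and Pros1 at -0.719 and -0.692, and Tyro3 and Pros1 at 0.819 and 0.728. Of the 10 pairs, Axl was thus positively related to Mertk alone. These values describe 12 libraries that share groups, scaling and tissue makeup.

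By the same measure, the genes most like Axl over the 12 libraries were Frmd4b (0.940), Ptafr, the receptor for platelet-activating factor (0.936), and Aagab (0.935). After centring, they were Zfp459 (0.977), Ccdc158 (0.966) and Atp8a1 (0.957), an aminophospholipid flippase. Zfp459 and Ccdc158 were scarce, with mean levels of 1.94 and 0.713 CPM. Those most like Mertk were Mpeg1 (0.898), the macrophage perforin, and the flagellin sensors Naip6 (0.897) and Naip5 (0.895), near copies whose reads counting could split, and after centring Igkv19-93 (0.923), Slc7a2 (0.914) and Rasa3 (0.898).

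Tyro3 was most like Mir7062 (0.946), Ppp1r13l (0.928) and Pcdh1 (0.927), and after centring like the pseudogene Gm12715 (0.944), Sipa1l2 (0.938) and the pseudogene Gm15432 (0.922). Mir7062 and Gm15432 had very low mean levels, 0.359 and 0.366 CPM. Gas6 was most like Wnk3 (0.948), Erf (0.926) and Tbx18 (0.925), and after centring like Wnk3 (0.948), Aldoa (0.944) and Pcdhgb7 (0.940). Wnk3 was scarce too, with a mean of 2.08 CPM. Pros1 was most like C1qtnf6 (0.971), the cortactin gene Cttn (0.952) and Calu (0.951), and after centring like Dstn (0.962), C1qtnf6 (0.958) and Cttn (0.954). The neighbours of Pros1 were the most stable to centring, with C1qtnf6 and Cttn in each set.

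Marker genes were summed by cell type and set beside the members, which had no common direction themselves. Adipocyte markers were summed at 923 to 2082 CPM in control, 2131 to 3149 in CAL and 1571 to 2099 in CAL_Dll4i, with 16 of 16 genes higher in CAL than in control and 16 of 16 lower in CAL_Dll4i than in CAL. Like Axl in CPM, this sum separated all CAL libraries from all others. Within control, replicate 3 had the highest sum and the least Axl, and replicate 4 the lowest sum and the most Axl. Within CAL the libraries had the same order in both, and within CAL_Dll4i the orders differed. Macrophage markers were summed at 2472 to 2821 CPM in control, 2525 to 2836 in CAL and 2526 to 2692 in CAL_Dll4i, with 7 of 13 genes higher in CAL than in control, and these ranges overlapped. Within that list, Adgre1, which encodes the macrophage surface protein F4/80, stood at 477 ± 7.80, 557 ± 59.4 and 485 ± 33.1 CPM, with every CAL library above every control (edgeR adjusted p = 0.215), and Cd68 stood at 573 ± 63.1, 568 ± 82.0 and 565 ± 44.7 with overlapping groups. Msr1, a scavenger receptor named after its values were seen, had the opposite direction to Adgre1, with log2 fold changes of -0.31 ± 0.10 in CAL against control and 0.22 ± 0.10 in CAL_Dll4i against CAL (edgeR adjusted p = 0.214 and 0.669). Neutrophil markers (8 of 10 listed genes in the table) were summed at 227 to 427, 116 to 237 and 227 to 311 CPM, with 8 of 8 lower in CAL than in control, and their ranges overlapped. Mast cell markers (9 genes) were summed at 146 to 213, 157 to 350 and 112 to 294 CPM, with 9 of 9 higher in CAL than in control and 8 of 9 lower in CAL_Dll4i than in CAL, and their ranges overlapped. Dendritic cell markers (8 genes) were summed at 104 to 147, 86.5 to 154 and 76.4 to 127 CPM, with 4 of 8 higher in CAL than in control. Their ranges overlapped too. The part of any of these cell types in the values of Axl was not tested.

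**Figure D4:**
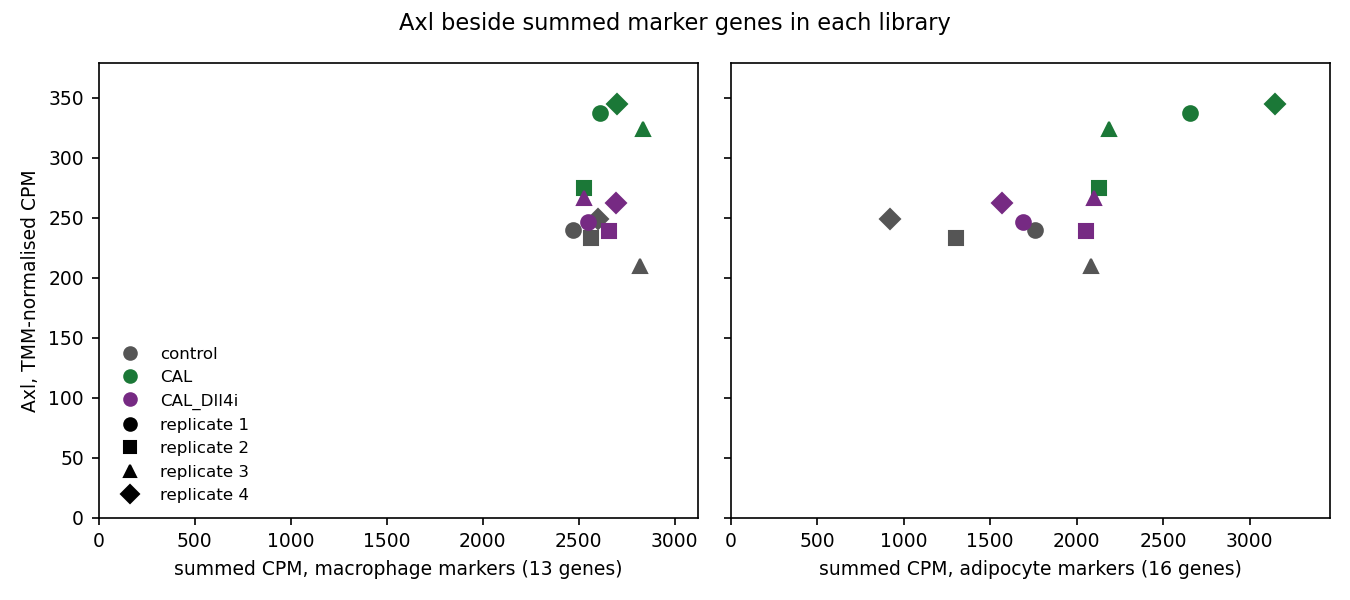
Axl in CPM (vertical axis) against the summed CPM of macrophage markers (left, 13 genes) and adipocyte markers (right, 16 genes) in 12 libraries, with colour for the group and shape for the replicate. CAL libraries lie at 2525 to 2836 in macrophage markers, over the range of the other groups, and to the right of all others in adipocyte markers.

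Lipid-associated macrophage markers such as Trem2 and Gpnmb (11 genes) were summed at 5656 to 7404 CPM in control, 5753 to 6861 in CAL and 6689 to 8048 in CAL_Dll4i, with 11 of 11 higher in CAL_Dll4i than in CAL and 4 of 11 higher in CAL than in control. Their order between groups differed from that of Axl. For Gas6, mural cell markers (11 of 12 genes in the table) were summed at 432 to 616, 391 to 503 and 485 to 588 CPM in control, CAL and CAL_Dll4i, and stromal progenitor markers (11 genes) at 1731 to 2185, 1781 to 2061 and 1863 to 2098. Endothelial markers (14 genes) were summed at 522 to 619, 425 to 596 and 495 to 580 CPM. Control replicate 3, the library with the most Gas6, also had the highest sum of all 3 lists in its group. The other groups differed. In CAL, replicate 2 had the most Gas6 (155 CPM). Replicate 1 had the highest mural (503) and endothelial (596) sums there, and replicate 4 the highest stromal progenitor sum (2061). In CAL_Dll4i, replicate 2 had the most Gas6 (187 CPM), the highest stromal progenitor sum (2098) and the lowest endothelial sum (495). The highest mural sum (588) lay in replicate 1, with the least Gas6 (137 CPM). The part of these cells in Gas6 was not tested.

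Keratinocyte markers (5 of 9 listed genes in the table) varied widely, and they had the order of Tyro3 in the CAL_Dll4i group only. In CAL_Dll4i replicates 1 to 4 they were summed at 358, 136, 11.5 and 159 CPM, beside Tyro3 at 5.28, 4.19, 2.88 and 4.59. In control they were summed at 9.62, 119, 21.8 and 201 CPM and in CAL at 12.05, 11.8, 61.7 and 8.32. Tyro3 did not follow the same order in either group. Schwann and neuronal markers (8 of 12 genes) were summed at 55.4 to 59.3 CPM in control, 43.7 to 54.6 in CAL and 51.6 to 58.8 in CAL_Dll4i, so they too were lowest in CAL. Their part in the level of Tyro3 was not tested.

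The rest of the machinery for uptake of dying cells was followed in 6 lists chosen for their roles. Earlier results of these data were known when the lists were chosen. Their shares, and those of the receptor tyrosine kinases below, are therefore given as a description. By edgeR at an adjusted p under 0.05, 0 genes of these lists passed in any of the 3 comparisons. Other phosphatidylserine receptors and bridging proteins had a median log2 fold change of -0.02 in CAL against control over 25 tested genes, where all genes had -0.01, with 2 higher and 5 lower at an unadjusted p under 0.05 (28.0%, against 14.6% of all genes) and 3 called by DESeq2 (Edil3, Itgb3 and Stab2), which called 3.59% of all genes. Mfge8, a bridging protein that links phosphatidylserine to integrins, measured 352 ± 74.1, 347 ± 54.2 and 453 ± 115 CPM (control, CAL and CAL_Dll4i, always in this order below, as mean ± SD of 4 libraries). Itgb3, the integrin beta chain that pairs with the alpha chain Itgav, stood at 60.0 ± 3.70, 45.1 ± 7.84 and 59.8 ± 7.49, with edgeR adjusted p = 0.187 for CAL against control and 0.659 for CAL_Dll4i against CAL. Itgav stood at 323 ± 16.3, 307 ± 22.4 and 327 ± 34.3. Itgb5, another integrin beta chain of this list, stood higher, at 260 ± 29.8, 268 ± 28.2 and 286 ± 34.6, with overlapping groups.

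Havcr2, which encodes the phosphatidylserine receptor Tim-3, stood at 29.1 ± 3.87, 21.8 ± 3.40 and 27.1 ± 4.47 CPM in control, CAL and CAL_Dll4i. Timd4, the Tim-4 receptor of resident macrophages, was scarce at 0.791 ± 0.252, 0.717 ± 0.363 and 1.11 ± 0.629. The scavenger receptors Stab1 (605 ± 65.4, 590 ± 93.5 and 631 ± 77.2) and Cd36 (1115 ± 74.5, 1104 ± 72.7 and 1231 ± 82.0) and the uptake receptor Lrp1 (2658 ± 148, 2764 ± 228 and 2955 ± 222) were abundant, and their groups overlapped. In CAL_Dll4i against CAL this list had 20 of 25 genes with higher estimates (median 0.10, all genes 0.00), 4 higher and 1 lower at an unadjusted p under 0.05 (5 of 25, against 7.42% of all genes), and 0 called by DESeq2. That count became 1 without CAL replicate 4 or CAL_Dll4i replicate 4, 2 without CAL replicate 1 or CAL_Dll4i replicate 2, 3 without control replicate 2, and 9 without CAL replicate 3.

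Of 19 tested genes of the engulfment machinery, 3 were higher and 1 lower in CAL against control at an unadjusted p under 0.05 (21.1%, against 14.6% of all genes, median -0.02), with 0 called by DESeq2. The count was 2 without control replicate 3 or CAL replicate 4. Rac1, the GTPase that drives the phagocytic cup, stood at 139 ± 2.41, 150 ± 5.79 and 149 ± 5.62 CPM, with no overlap between control and CAL and edgeR adjusted p = 0.271. Its activators Elmo1 (170 ± 16.2, 167 ± 11.5 and 162 ± 5.19) and Dock1 (278 ± 3.79, 279 ± 13.7 and 281 ± 21.1) overlapped in all groups.

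Phosphatidylserine exposure and do-not-eat signals had 1 gene higher and 1 lower at an unadjusted p under 0.05 in CAL against control, of 13 tested (15.4%, against 14.6% of all genes, median 0.06), and this count of 2 became 1 without any of control replicates 2, 3 and 4, CAL replicates 1 and 4 and CAL_Dll4i replicate 2. Sirpa, the myeloid receptor for Cd47, stood at 361 ± 16.0, 415 ± 27.3 and 414 ± 12.1 CPM. Its CAL and CAL_Dll4i libraries each lay above all controls (edgeR adjusted p = 0.175 and 0.648, and DESeq2 adjusted p = 0.01999 and 0.0926). Unlike Axl, Sirpa had a log2 fold change of -0.00 ± 0.05 in CAL_Dll4i against CAL. Cd47 (189 ± 10.5, 198 ± 11.9 and 192 ± 10.5), the scramblase Ano6 (284 ± 3.83, 283 ± 13.5 and 277 ± 20.9) and the caspase-activated scramblase Xkr8 (7.06 ± 0.343, 7.41 ± 0.792 and 6.81 ± 0.727) overlapped throughout.

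The enzymes that make Gla domains had overlapping groups in every comparison. Ggcx, the gamma-carboxylase, stood at 42.5 ± 2.97, 45.3 ± 2.41 and 44.7 ± 1.60 CPM, and Vkorc1, which recycles vitamin K, at 27.6 ± 4.05, 26.2 ± 1.00 and 26.6 ± 1.61. Of 16 tested genes of the vitamin K cycle and other Gla proteins, 2 were higher and 2 lower at an unadjusted p under 0.05 in CAL against control (25.0%, against 14.6% of all genes, median -0.02), and DESeq2 called 3, F7, Nqo1 and Procr, where it called 3.59% of all genes. Among 19 tested shedding and signalling partners, 1 was higher and 1 lower (10.5%, against 14.6% of all genes, median -0.03), with 0 called by DESeq2. The count of 2 became 0 without CAL replicate 4, 1 without control replicate 3 or 4 or CAL replicate 1, and 4 without CAL replicate 3. Adam17, a protease that sheds Mertk, stood at 286 ± 20.8, 275 ± 15.5 and 262 ± 12.97, and Socs3, a cytokine signalling inhibitor, at 17.8 ± 6.995, 8.91 ± 3.17 and 16.2 ± 8.20. Socs3 had edgeR adjusted p = 0.282 and 0.669 in CAL against control and CAL_Dll4i against CAL.

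The liver X receptor and PPAR list, whose genes respond to lipid taken up with dying cells, had the largest share at an unadjusted p under 0.05 of the 6 lists in CAL against control, 6 higher and 2 lower of 15 (53.3%, against 14.6% of all genes, median 0.12), and 4 genes were called by DESeq2 (3.59% of all genes). The count of 8 became 5 without control replicate 2 or CAL replicate 1. Abca1, which exports cholesterol from cells, stood at 611 to 715 CPM in control, 792 to 924 in CAL and 732 to 828 in CAL_Dll4i, with log2 fold changes of 0.37 ± 0.07, -0.14 ± 0.07 and 0.23 ± 0.07 in the order of comparisons used above. Its edgeR adjusted p = 0.0998, 0.681 and 0.700, and DESeq2 adjusted p = 0.000149 in CAL against control. Abcg1, a related exporter, stood at 164 ± 21.7, 216 ± 15.8 and 183 ± 17.5 CPM (edgeR adjusted p = 0.166 in CAL against control). Nr1h3, which encodes the liver X receptor alpha, stood at 33.1 ± 3.00, 45.5 ± 10.6 and 34.996 ± 2.57 (0.195).

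Ppard, a nuclear receptor that acts in the response of macrophages to apoptotic cells, stood at 22.7 ± 1.45, 16.5 ± 2.71 and 21.7 ± 3.57 CPM (edgeR adjusted p = 0.195 in CAL against control). DESeq2 called Abca1, Abcg1 and Nr1h3 higher and Ppard lower in CAL. Apoe stood at 691 ± 62.8, 685 ± 85.6 and 717 ± 82.3 and overlapped throughout. In CAL_Dll4i against CAL, 1 gene was higher and 5 lower at an unadjusted p under 0.05 (40.0%, against 7.42% of all genes, median -0.03), with 0 called by edgeR or DESeq2. Genes of this list are also active in adipocytes, whose markers separated CAL from the other groups, and the part of those cells was not tested.

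**Figure D5:**
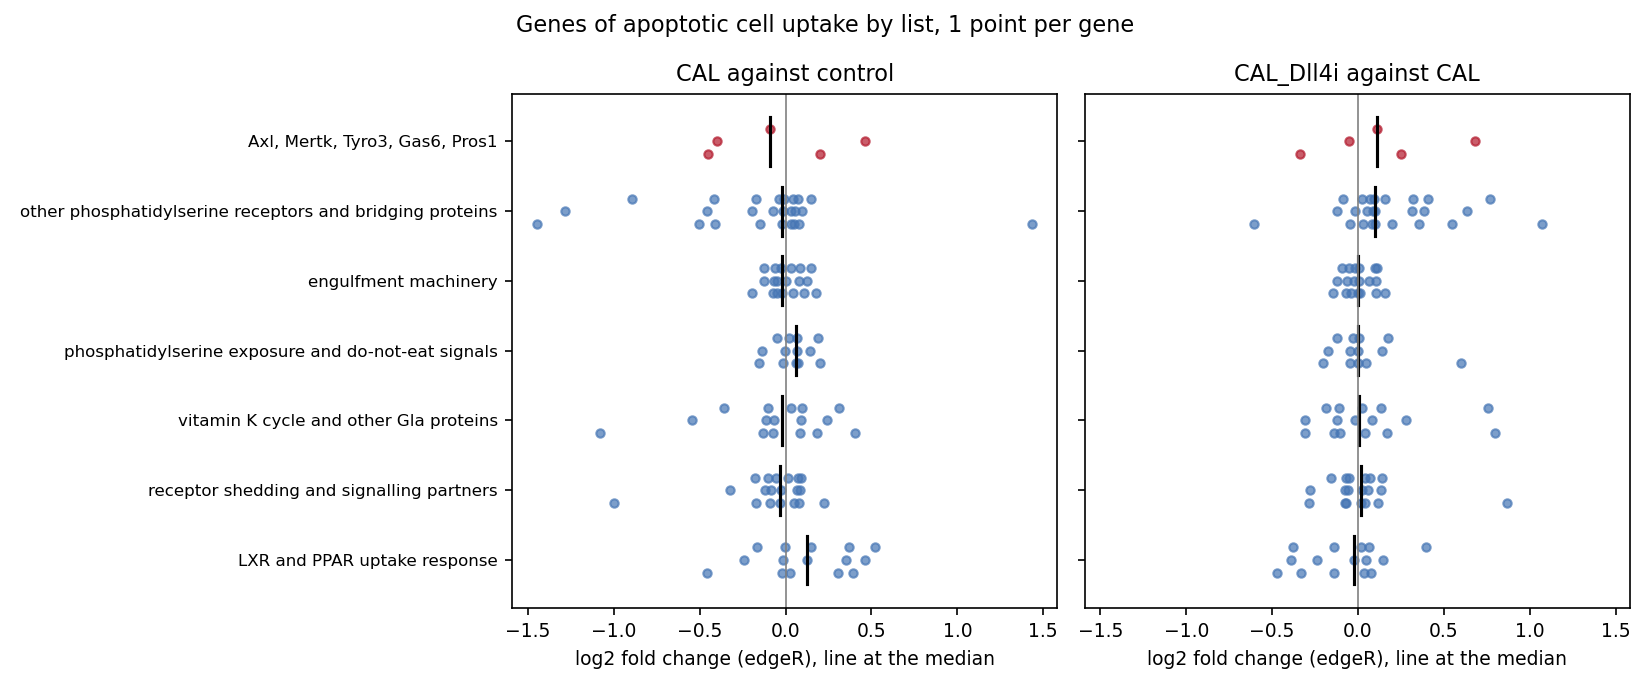
Log2 fold change by edgeR (horizontal axes) of the TAM genes (red) and of the tested genes of 6 lists (blue, 1 point per gene, line at the median) in CAL against control (left) and CAL_Dll4i against CAL (right). Medians lie between -0.09 and 0.12 on the left, the 5 TAM genes reach from -0.45 to 0.46, and the genes of the lists from -1.45 to 1.44.

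Among the 49 receptor tyrosine kinases in the table, including the 3 TAM receptors, 19 had higher and 30 lower estimates in CAL against control (median -0.14), with 2 higher and 9 lower at an unadjusted p under 0.05 (22.4%, against 14.6% of all genes), 0 called by edgeR and 3 by DESeq2 (Axl, Epha3 and Epha5). The count of 11 became 7 without control replicate 4 and 5 without CAL replicate 4. Csf1r stood at 446 ± 20.5, 473 ± 46.5 and 441 ± 10.1 CPM in control, CAL and CAL_Dll4i. The stromal receptor Pdgfra stood at 213 ± 17.8, 210 ± 21.0 and 245 ± 26.4, and the mural cell receptor Pdgfrb at 210 ± 28.2, 184 ± 24.2 and 230 ± 31.6. Of the 3 TAM receptors, Axl and Mertk had higher estimates in CAL and Tyro3 a lower one. In CAL_Dll4i against CAL, 31 of the 49 had higher estimates (median 0.11), with 13 higher and 1 lower (Axl) at an unadjusted p under 0.05 (28.6%, against 7.42% of all genes) and 0 called by edgeR or DESeq2. The count of 14 became 9 without CAL replicate 4, 8 without CAL_Dll4i replicate 2 and 7 without CAL_Dll4i replicate 4. Axl and Mertk were among the 18 with lower estimates.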

How the data were processed

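The 12 libraries were made from Trizol-extracted RNA with a SureSelectXT RNA Direct kit, which enriches exons by capture, per the labels' protocols. HISAT2, StringTie and the build mm10 are named in the submitters' processing notes, without versions. Estimated counts, as deposited, were unscaled whole numbers of at least 1, so rounding changed none. The deposited TPM values, normalised for length by the authors and summing to 995156 to 998891 per library, were used to compare levels between genes. The deposited FPKM values, also made by the authors, were only kept beside them.

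The main test was that of edgeR 4.0.16 under R 4.3.3 (TMM, filterByExpr, robust quasi-likelihood test, 1 coefficient per group, Benjamini-Hochberg over 18551 genes). CPM values are TMM-normalised. The alternatives used DESeq2 1.42.0 and limma 3.58.1, other scalings and filters, only the groups compared, a replicate block, and libraries left out. The code was checked on simulated counts with 200 changed genes. No 2 libraries agreed within sampling noise. Gene positions and promoters come from RefSeq (GRCm38.p6), in which 19503 of 19547 gene IDs were found, including all 5 members. Exon overlaps come from GENCODE vM21.

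The members and lists were chosen with earlier results of these data known. Named genes are the 5 members, genes marked in each list for their role, any list gene called by edgeR (none), Dll4 and Acta1, and the 3 genes with the highest Pearson correlation of log2 CPM (prior count 2) with each member over 12 libraries, with and without centring groups. List genes named only because another tool called them were picked after their values were seen. Listed genes outside the table were not analysed here. Python 3.11.15 with matplotlib 3.10.9 drew the figures.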

Additional observations from a re-analysis of the deposited data

Results flagged for a closer look

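Of the 66 groups of 4 libraries examined (the levels of the 5 genes, summed markers, the Axl share of receptors, the Gas6 share of ligands and the ligand to receptor ratio), 4 held a library far from the other 3 by Dixon's test at its 95% critical value of 0.829, a rate near the 1 in 20 that chance gives, and none of the 4 was a level of a TAM gene. Endothelial markers were summed at 619 CPM in control replicate 3 against 522 to 532 in the other controls, and stromal progenitor markers at 2185 CPM in the same library against 1731 to 1791. That library also had the highest Gas6 and the lowest Axl and Mertk of its group. Keratinocyte markers were summed at 61.7 CPM in CAL replicate 3 against 8.32 to 12.05, and skeletal muscle markers at 6681 CPM in CAL_Dll4i replicate 3 against 156 to 270.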

How the results depend on the processing

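The log2 fold changes of Axl, Gas6, Tyro3 and Mertk in CAL against control kept their sign in all 21 alternatives, at 0.41 to 0.53, -0.51 to -0.36, -0.58 to -0.27 and 0.12 to 0.26. In CAL_Dll4i against CAL, Axl (-0.42 to -0.30), Gas6 (0.18 to 0.33), Tyro3 (0.55 to 1.01) and Pros1 (0.09 to 0.18) did too. Signs turned for Mertk in CAL_Dll4i against CAL (-0.11 to 0.0198 with each library left out, the latter without CAL replicate 3) and for Pros1 in CAL_Dll4i against control (-0.0205 to 0.0635, with -0.0205 without control replicate 1 and -0.00027 without CAL_Dll4i replicate 2). The cause was not tested.

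In CAL against control, the 1 gene called became 619 by DESeq2 and 72 by voom with sample weights, and 0 with only the groups compared or without the 3 libraries with Acta1 above 10 CPM. It was 0 to 6 with each library left out: 6 without control replicate 1, 4 without CAL_Dll4i replicate 3, 3 without CAL replicate 3, 2 without control replicate 4 or CAL replicate 2, and 0 without CAL replicate 1. Members called there were 2 by DESeq2 (Axl and Gas6), 1 by voom and 0 to 1 with each library left out (Axl without CAL replicate 2). In CAL_Dll4i against CAL, DESeq2 called 1 gene, and in CAL_Dll4i against control 61, where edgeR called 0, also with each library left out. In TPM, the log2 ratio of group means of Pros1 was 0.06 in CAL_Dll4i against CAL and turned to -0.06 in CAL_Dll4i against control. With the replicate block, 1, 0 and 0 genes were called in the 3 comparisons and 0 members. Same-numbered libraries share only a number: 2 of 12 such pairs had deviations correlated over 0.1 (-0.385 to 0.144), and 0 of 12 libraries correlated best with their own number. Tyro3 rested on 125 to 350 counts per library, the fewest of the 5. Counts of list genes at an unadjusted p under 0.05 moved with single libraries, as given in part beside them. With each library left out, CAL against control had 5 to 8 for the other phosphatidylserine receptors and bridging proteins. It had 5 to 9 for the liver X receptor and PPAR list and 5 to 16 for the receptor tyrosine kinases. In CAL_Dll4i against CAL, the liver X receptor and PPAR list ran from 4 to 8 and receptor tyrosine kinases from 7 to 17.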
